A study of Mus musculus with 8 samples.

Results

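The cytosolic ribosomal protein genes encode the protein part of the ribosome that translates nuclear-encoded mRNAs. They were chosen by symbol: names that start with Rpl or Rps followed by a digit, and Rplp0, Rplp1, Rplp2 and Rpsa, leaving out the S6 kinases (Rps6k), Rps19bp1 and pseudogenes. The arrays held 170 probes of 84 such genes, and each of the 84 had a probe that passed the filter on dim probes (well above background on 4 or more arrays). Of them, 82 were well above background on all 8. They were 84 of 21434 genes and unnamed features tested, with 52 genes of the large subunit, 31 of the small subunit, and Rps23rg1, a retroposed copy of Rps23 that meets the naming rule. Rps4l meets it too but is listed by RefSeq as a transcribed pseudogene and was left out. The naming rule itself uses no measured value.

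Gene expression was measured in 8 hearts of male C57BL6 mice, 4 per group, each on its own 1-colour Agilent array. All mice carried Cre, and all received 4OH-tamoxifen (500 µg on each of 10 days in a row) at 8 months of age, with hearts taken 6 weeks later. Control mice had no floxed Igf1r allele. Double-transgenic (dtg) mice had the genotype merCremer/+ IGFloxP/IGFloxP, in which a Cre that depends on tamoxifen is meant to remove exon 3 of Igf1r, the receptor for insulin-like growth factor 1. Which promoter drives merCremer the labels do not say, and RNA came from whole hearts. Since the labels do not say that each sample is a separate animal, the spread between samples may be technical.

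Ribosomal proteins are made in large, near-equal amounts and are assembled with ribosomal RNA in the nucleolus, the nucleoplasm and finally the cytoplasm. Their mRNAs typically begin with a 5′ terminal oligopyrimidine (TOP) tract, a C followed by an unbroken run of pyrimidines. Through this tract the kinase mTOR, which acts downstream of insulin and IGF-1 receptors, controls their translation, so that the amount of these mRNAs and the rate at which they are translated can change separately. An array measures only the amount of mRNA.

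The TOP tract is the sequence for which this family is known, and its form in single members is shown here from RefSeq (GRCm38.p6), as 25 bases before and 20 bases from the annotated start. Capitals mark a C and at least 4 further pyrimidines (C or T, read on the gene's strand only), read from that start onward. The bases before the start were not checked. In each gene of the group printed next the pyrimidines reach further upstream, to position -1 in Rps6 and -7 in Rpl35. Rps6, the substrate of the S6 kinases, has its start in chr4:86857348-86857392 (minus strand). Rpl15 has it in chr14:18270967-18271011 (minus), Rpl35 in chr2:39005112-39005156 (minus), Rps27 in chr3:90213629-90213673 (minus) and Rps10 in chr17:27635225-27635269 (minus).
Rps6: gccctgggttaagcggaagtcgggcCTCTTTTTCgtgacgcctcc
Rpl15: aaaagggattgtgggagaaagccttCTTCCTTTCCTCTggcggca
Rpl35: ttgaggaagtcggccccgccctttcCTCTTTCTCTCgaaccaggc
Rps27: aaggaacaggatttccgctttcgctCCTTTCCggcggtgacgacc
Rps10: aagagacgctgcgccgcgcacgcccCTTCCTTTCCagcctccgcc

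The next 3 members are shown because Rps15 and Rpl41 were the members whose groups did not overlap and Rps3 had the largest difference among members well above background on all arrays. None has such a run at the annotated start: Rps15 (chr10:80292406-80292450, plus strand), Rpl41 (chr10:128549149-128549193, minus strand) and Rps3 (chr7:99483690-99483734, minus strand).
Rps15: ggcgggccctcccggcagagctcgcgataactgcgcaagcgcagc
Rpl41: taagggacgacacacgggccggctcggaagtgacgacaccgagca
Rps3: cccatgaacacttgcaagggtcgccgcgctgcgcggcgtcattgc

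The promoter table held 64 of the 84 genes. Read from a RefSeq start onward, such a run was present in 13 of them (20.3%), against 3.01% of 27025 genes in the table. It could be the later part of a longer run that began before the start. When the run could begin up to 10 bases to either side, 39 of the 64 (60.9%) held one, against 34.4% of all genes. Annotated starts can be off by some bases, so a member without capitals is only one in which no such run is read from that base. The 13 genes with a run at the start had a median log2 difference between dtg and control hearts of 0.030, and the 51 without had one of 0.032.

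Slide 1 carried controls 1 and 2 beside dtg 1 and 4, and slide 2 carried controls 3 and 4 beside dtg 2 and 3. Values below are log2 processed signal minus the 75th percentile of the array, and a difference is dtg minus control on that scale. The 75th percentile itself lay between 858.4 and 1027 intensity units on 6 arrays and lower on control 4 (737.6) and dtg 4 (754.6), and no spot was saturated. All 8 cardiomyocyte markers were measured, and Myh6, the alpha myosin heavy chain, lay between 8.71 and 8.84 in every heart. Igf1r, read by a single probe whose position relative to exon 3 is not known here, had values of 0.064, 0.096, 0.26 and 0.92 in controls 1 to 4 and -0.41, -0.32, 0.060 and 0.30 in dtg 1 to 4 (difference -0.43, SE 0.24, limma adjusted p = 1). The groups overlapped, and the difference was -0.23 without control 4, -0.13 within slide 1 and -0.72 within slide 2. Without the position of the probe, these values do not show whether the exon was removed.

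No ribosomal protein gene passed the test between dtg and control hearts. Limma called 0 of the 84 at an adjusted p under 0.05, against 0.0% of all features, and the smallest adjusted p of a member was 1. Below an unadjusted p of 0.05 lay 0 of the 84 and 0.76% of all features (163, split as 136 higher and 27 lower, or 97 and 98 with quantile normalization). The difference was smaller than 0.1 on the log2 scale in either direction for 73 of the 84. The median difference was 0.032, beside 0.021 over all features, and the median SE of a member was 0.14, beside 0.18 over all features. By sign, 62 members stood above and 22 below the control mean, where 42.6% of all features stood below. That split depended on the scaling of the arrays: 43 members were below the control mean with quantile normalization (54.5% of all features) and 58 with median scaling (66.3% of all features), and the median difference was then -0.0011 and -0.037. It also depended on single hearts: without controls 1, 2, 3 and 4 in turn, 44, 40, 37 and 6 members were below, and without dtg 1 and dtg 4, 11 and 51.

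**Figure D1:**
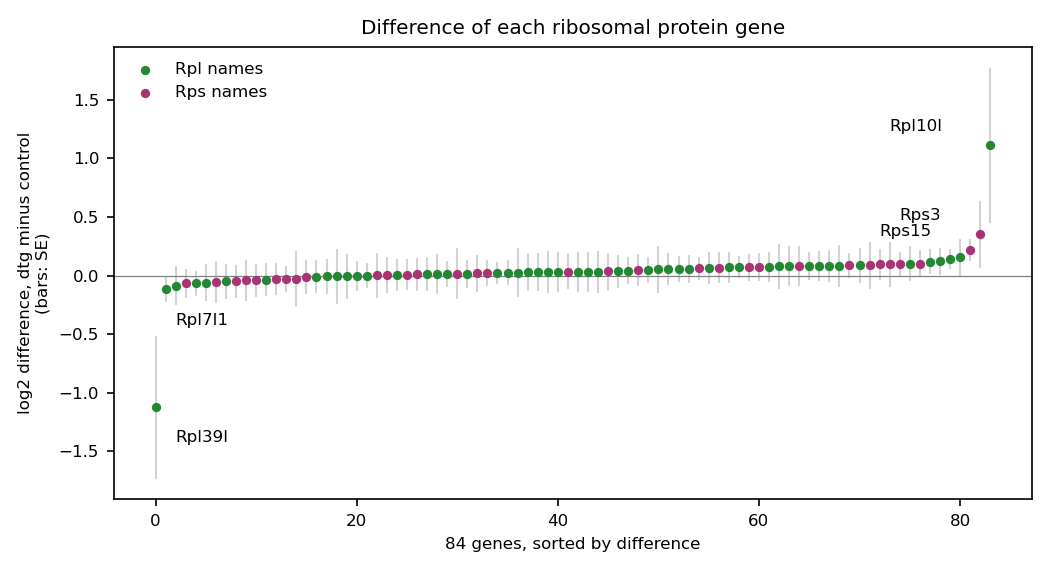
Each point is 1 of the 84 ribosomal protein genes, sorted by its log2 difference (dtg minus control, y axis), with bars of 1 SE from limma and colours for large (Rpl) and small (Rps) subunit names. Of the points, 73 lie within 0.1 of 0, and the points at both ends, Rpl39l and Rpl10l, have wide bars.

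By subunit, the medians were close to that of all members, and the difference between subunits was not tested. The median difference was 0.033 over the 52 large subunit genes, of which 39 were above and 13 below the control mean, and 0.032 over the 31 small subunit genes, of which 22 were above and 9 below. Among smaller groups fixed by role, the 9 proteins at the rim of the exit tunnel, through which the nascent chain leaves the ribosome, had a median of 0.048. The 4 proteins of the stalk that recruits elongation factors (Rplp0, Rplp1, Rplp2 and Rpl12) had 0.051, and Rpl5 and Rpl11, which join 5S RNA and can also bind the p53 regulator Mdm2, had 0.027. The 19 listed genes of Diamond-Blackfan anaemia, a human failure of red cell production, had 0.047. None of these groups held a gene that passed limma's test or an unadjusted p under 0.05.

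In 2 of the 84 genes, Rps15 and Rpl41, all 4 dtg hearts lay above all 4 control hearts. Over all features this held for 0.383%, and the reverse order held for 0 members against 0.163% of all features. Rps15, a protein of the head of the small subunit needed for the late maturation of that subunit, had values of 5.76, 5.79, 5.74 and 5.80 in controls 1 to 4 and 5.88, 5.92, 6.10 and 6.05 in dtg hearts 1 to 4. The controls lay within a narrow band, and dtg 3 and dtg 4 were the highest. Its difference of 0.22 (SE 0.094) had the smallest unadjusted p of any member, 0.0517 (limma), with an adjusted p of 1. It was 0.19 within slide 1 and 0.24 within slide 2. The second kept probe of Rps15 differed by 0.15 (SE 0.10), with controls from 4.52 to 4.61 and dtg hearts from 4.58 to 4.81, so on that probe the groups overlapped.

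Rpl41, a very short basic peptide at the interface of the subunits, had values of 7.003, 7.09, 7.01 and 7.02 in control and 7.15, 7.15, 7.19 and 7.19 in dtg hearts 1 to 4. The lowest dtg heart stood just above the highest control. The difference was 0.14 (SE 0.085, limma adjusted p = 1), and 0.12 and 0.15 within slides 1 and 2. With quantile normalization the groups of Rps15 stayed apart and those of Rpl41 overlapped, and with median scaling both overlapped. Neither gene followed the hearts in the way most members did, and both lay below their own mean over the 8 hearts in control 4.

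**Figure D2:**
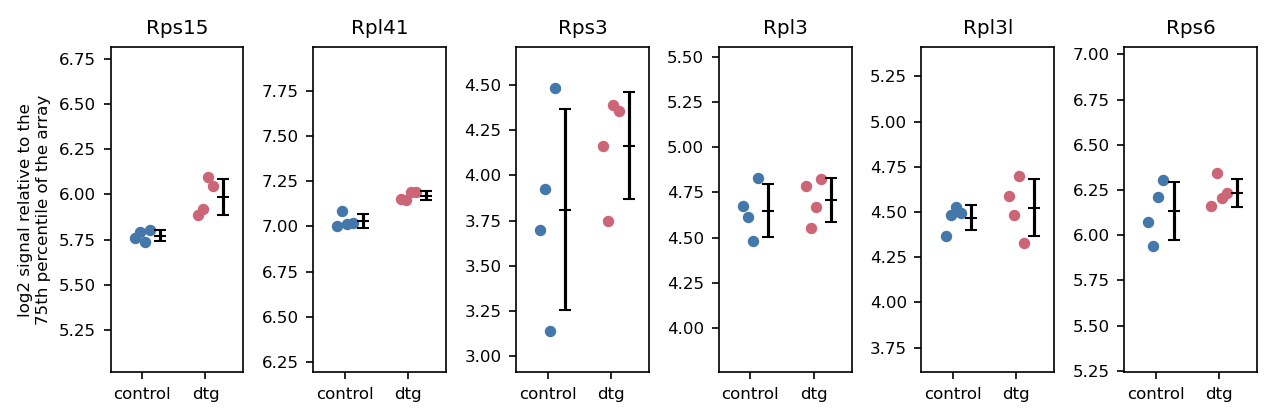
Points are single hearts and the horizontal mark with its bar is the mean ± SD of 4 hearts, on the log2 scale after subtraction of the array's 75th percentile; every panel spans the same range of log2 units. The groups of Rps15 and Rpl41 do not overlap, while those of Rps3, Rpl3, Rpl3l and Rps6 do.

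Rps3, which lines the entry of the mRNA channel of the small subunit, was the member with the largest spread among those clearly above background. Its values were 3.70, 3.93, 3.14 and 4.48 in control and 4.16, 3.75, 4.39 and 4.36 in dtg hearts 1 to 4. Control 3 was the lowest heart and control 4 the highest, so that the control group spanned all dtg values. The difference was 0.35 (SE 0.28, limma adjusted p = 1), or 0.13 without control 3 and 0.58 without control 4. The second kept probe of Rps3 differed by -0.046 (SE 0.13), with controls from -0.14 to 0.20 and dtg hearts from -0.17 to 0.18.

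The other members that the rule picked by smallest unadjusted p differed by little. Rpl39, a protein of the exit tunnel, differed by 0.12 (SE 0.12). On the lower side, Rpl7l1, a divergent relative of Rpl7, differed by -0.12 (SE 0.11), Rpl4, whose loop lines the exit tunnel, by -0.085 (SE 0.17), and Rpl13 and Rps12 each by -0.067 (SE 0.10 and 0.12). Rpl7 differed by -0.060 (SE 0.16). Their adjusted p was 1 each (limma), and within slide 1 Rpl13, Rps12, Rpl4 and Rpl7 were at 0.034, 0.12, 0.090 and 0.12.

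Rps6, the small subunit protein phosphorylated after growth factor signals, had values of 6.08, 5.94, 6.21 and 6.30 in control and 6.16, 6.34, 6.21 and 6.23 in dtg hearts 1 to 4. The dtg hearts lay within or just above the range of the controls, with a difference of 0.10 (SE 0.11). The P0 protein of the stalk, Rplp0, which is often used as a reference gene, had values of 7.35, 7.46, 7.56 and 7.90 in control and 7.51, 7.58, 7.75 and 7.68 in dtg hearts. Control 4 was the highest heart, and the groups overlapped (difference 0.063, SE 0.14). Rplp1 and Rplp2 differed by 0.025 (SE 0.21) and 0.038 (SE 0.14), and Rpsa, also known as the laminin receptor, by 0.018 (SE 0.16). Rpl5 differed by 0.028 (SE 0.18), Rpl11 by 0.026 (SE 0.16), and Rps27a, which is made as a fusion with ubiquitin, by -0.029 (SE 0.11). With median scaling all of these but Rps6 were below 0. None passed limma's test (adjusted p = 1 for each).

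Several members have a paralog whose use depends on the tissue. Rpl3l replaces Rpl3 in part of the ribosomes of striated muscle. Rpl3l had values of 4.37, 4.48, 4.53 and 4.49 in control and 4.59, 4.48, 4.70 and 4.33 in dtg hearts 1 to 4, and Rpl3 had 4.67, 4.62, 4.48 and 4.83 in control and 4.78, 4.55, 4.67 and 4.82 in dtg hearts. Both differed by about the same amount, 0.055 (SE 0.11) for Rpl3l and 0.056 (SE 0.12) for Rpl3, with full overlap of the groups. They did not move together over the hearts, since dtg 4 was the lowest heart for Rpl3l and among the highest for Rpl3.

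The other pairs gave small differences too, and no difference between a parent and its paralog was tested. Rpl22 differed by -0.0058 (SE 0.19) and Rpl22l1 by -0.0082 (SE 0.15). Rps27 differed by 0.081 (SE 0.17), and Rps27l, known as a target of p53, by -0.050 (SE 0.14). Rpl36a and Rpl36al differed by -0.036 (SE 0.14) and 0.013 (SE 0.17), and Rps4x by 0.035 (SE 0.16). The remaining parents Rpl10 and Rpl26 differed by 0.043 (SE 0.11) and 0.077 (SE 0.20). No paralog or parent passed limma's test (adjusted p = 1 for each). The excluded pseudogene Rps4l differed by 0.24 (SE 0.25), by 0.031 without control 1 and by -0.0016 within slide 2.

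Rpl10l and Rpl39l, both best known from testis, lay near the background and had the widest spread of all members. Rpl10l was well above background on 2 control and 2 dtg arrays, with values of -4.61, -4.71, -6.80 and -6.58 in control and -5.11, -5.67, -3.78 and -3.71 in dtg hearts 1 to 4 (difference 1.11, SE 0.66). Its second probe lay well above background on no array. Rpl39l was well above background on all 4 control arrays and 1 dtg array, with values of -4.86, -5.40, -4.20 and -5.11 in control and -7.13, -5.70, -6.92 and -4.31 in dtg hearts (difference -1.12, SE 0.61). The groups overlapped in both. With normexp background correction without dark spots the differences were 0.19 and -0.25, and with normexp on all spots -0.080 and -0.45, so their size, and for Rpl10l the sign, depended on the background correction.

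Most members moved together from heart to heart, and the hearts that stood out were 1 of each group. As a deviation from each gene's own mean over the 8 hearts, the median member stood at -0.13, -0.078, -0.087 and 0.25 in controls 1 to 4 and at -0.11, -0.033, 0.028 and 0.18 in dtg hearts 1 to 4. In control 4, 72 of the 84 genes were above their own mean, and in dtg 4, 80 were. In control 1 that count was 9, in control 2 it was 13 and in dtg 1 it was 17. Control 4 and dtg 4 were the top pair of hearts for 50 of the 84 genes, control 4 was the highest heart for 56.0% of the members and 22.0% of all features, and control 1 or control 3 was the lowest heart for 26 members each. The median over all features stood at -0.033 in control 4 and 0.10 in dtg 4.

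**Figure D3:**
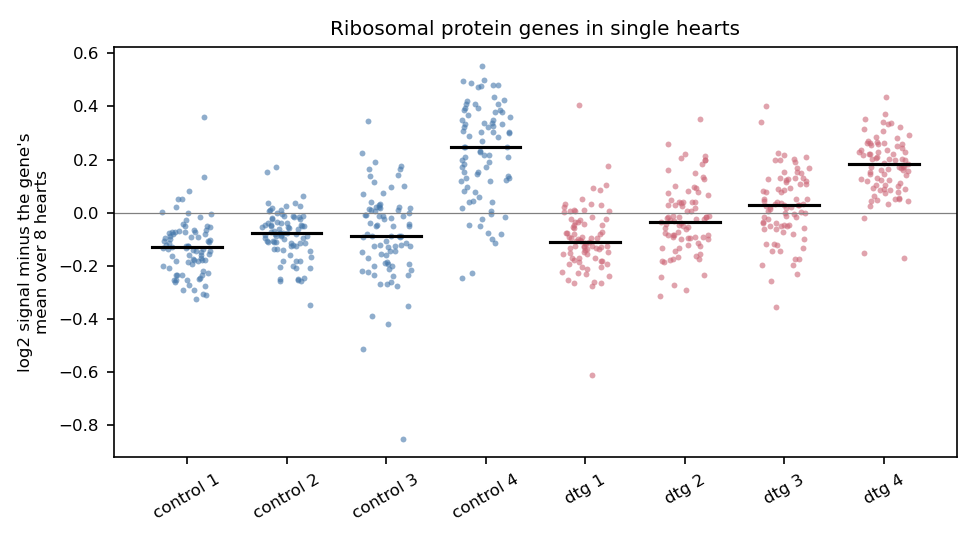
Each point is a ribosomal protein gene in 1 heart, as its log2 signal minus its own mean over the 8 hearts, with control hearts in blue and dtg hearts in red; the black lines are the medians over all 84 genes, and Rpl10l and Rpl39l are left out of the points. The clouds of control 4 and dtg 4 lie above 0, at medians of 0.25 and 0.18, and the other 6 medians lie between -0.13 and 0.028.

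Examples show this movement in members with a wider spread than most, with an SD over the hearts of 0.33 for Rpl14 and 0.26 for Rpl22. Rpl14 had values of 6.49, 6.54, 6.81 and 7.35 in control and 6.53, 6.78, 6.62 and 7.23 in dtg hearts 1 to 4. Control 4 and dtg 4 were the highest hearts in their groups, and the difference between groups was -0.0081 (SE 0.23). Rpl22 had 5.35, 5.33, 5.41 and 5.99 in control and 5.24, 5.43, 5.55 and 5.84 in dtg hearts, with the same hearts on top. The genes below their own mean in control 4 numbered 12, among them Rpl10l, Rpl15, Rpl17, Rpl21, Rpl23, Rpl3l, Rpl41, Rps15, Rps23rg1 and Rps25. In dtg 4 they were Rpl3l, Rpl7l1 and Rps23rg1. The members with the smallest SD over the hearts were Rpl15, Rpl13a and Rpl10a, at 0.072, 0.073 and 0.073; the Rpl15 spot of dtg 4 was marked as an outlier and left out. For comparison, the median SD was 0.17 over the members and 0.25 over all features.

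The position of control 4 and dtg 4 depended on how the arrays were scaled. Before any scaling the median member stood at 0.0017 in control 4 and at -0.029 in dtg 4, that is, level with its mean over the hearts. The median over all features then stood lower in these hearts, at -0.28 and -0.11. The 75th percentiles that the scaling subtracts were lowest on these arrays. With quantile normalization the 2 hearts stayed highest, at 0.12 and 0.065, with 61 and 60 of 84 genes above their mean, and the other 6 hearts lay between -0.040 and 0.0020. With median scaling control 4 remained the highest at 0.48, but dtg 4 stood at 0.050, below dtg 2 at 0.16 and control 3 at 0.13. With normexp background correction as planned the order turned, with control 4 at -1.09 and dtg 4 at -0.15. All features then stood at 0.67 and 0.32 in these hearts, whose fitted background means were -1740 and -461.9. When spots whose signal fell under their surroundings were kept out of that fit, the median member stood at 0.22 and 0.18.

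Most members are bright, so they were also set beside the 918 other features with a mean log2 signal over 5. With the 75th percentile these stood at 0.13 in control 4 and 0.11 in dtg 4, where the 65 members over the same limit stood at 0.25 and 0.19. With quantile normalization the other bright features stood at 0.0093 and -0.011, and the 65 members at 0.13 and 0.053. Before any scaling the other bright features stood at -0.12 and -0.11, and the 65 members at 0.0032 and -0.022. With normexp on all spots the other bright features stood at -1.25 and -0.23.

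**Figure D4:**
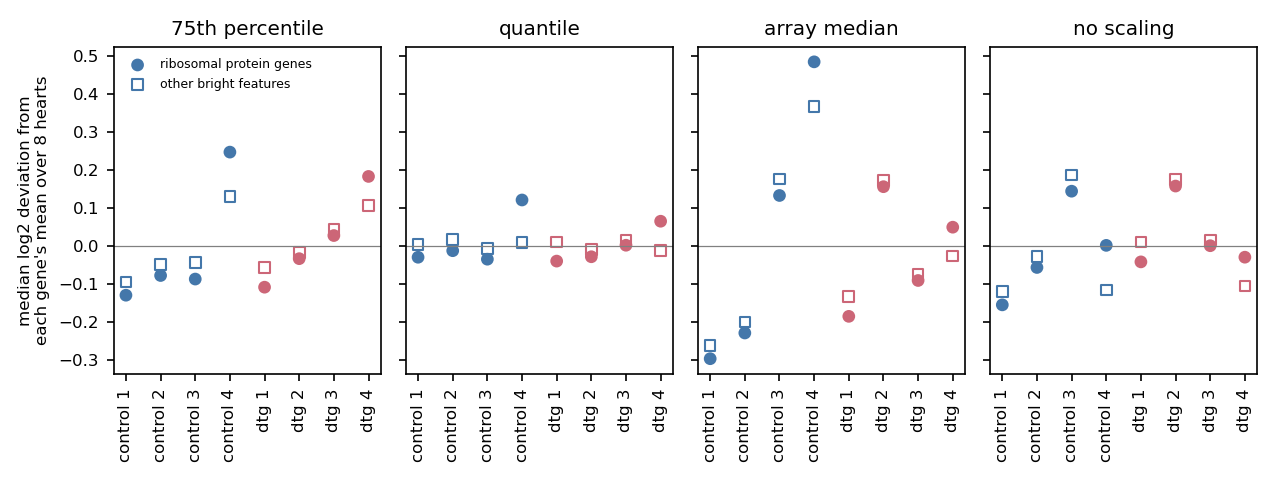
Filled circles are the median over the 84 ribosomal protein genes, and open squares the median over 918 other features with a mean log2 signal over 5, of the log2 deviation from each gene's mean over 8 hearts (y axis), in control (blue) and dtg (red) hearts; each panel is 1 way of scaling the arrays. Control 4 stands at 0.25, 0.12, 0.48 and 0.0017 from the left panel to the right.

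Markers of other cell types also differed in these hearts. The summed linear signal of 6 atrial markers, in multiples of the 75th percentile, was 628.7 in control 4 and 489.9 in dtg 4, and between 56.5 and 467.1 in the other 6 hearts. The median atrial marker stood at 1.68 and 1.31 from its mean in them. It stood at 1.23 in control 3, where the median ribosomal protein gene stood at -0.087. Of the atrial markers, Kcna5 lay below its own mean in control 4 and dtg 4, at -0.53 and -0.38. The summed signal of 5 measured erythroid markers of 6 listed was 886.3 and 951.7, against 487.7 to 796.4. That of 7 fibroblast markers was lowest in them, at 100.8 and 103.7 against 123.4 to 170.3, although the median fibroblast marker stood above its mean in both, at 0.13 and 0.20. The sum of the 3 measured skeletal muscle markers of 7 listed was also lowest in them, at 64.2 and 41.8 against 69.2 to 95.4. Myh1, Myh2, Myh4 and Actn3 were not measured, and that sum came almost wholly from Acta1 and Ckm. It therefore cannot show how much skeletal muscle a sample held. Acta1 in control 4 (5.04) lay within the range of the other hearts. The dim Tnnt3 went the other way in dtg 4, its highest heart, at -3.81, and stood at -4.13 in control 4. For the 8 cardiomyocyte markers the sum was 2716 and 2982, with the other hearts between 2643 and 2954. The adipocyte sum was 115.7 and 99.1, against 81.8 to 99.0, and came almost wholly from Fabp4 (6.85 and 6.63). The leukocyte sum was 20.2 and 18.1, against 14.9 to 18.7. The endothelial, smooth muscle, and lung and thymus sums of control 4 and dtg 4 lay within the range of the other hearts. By group, the atrial sum ranged from 56.5 to 628.7 in controls and from 66.2 to 489.9 in dtg hearts, and the fibroblast sum from 100.8 to 163.6 and from 103.7 to 170.3. The erythroid sum ranged from 487.7 to 886.3 in controls and from 711.5 to 951.7 in dtg hearts, and all 5 erythroid markers were above the control mean (median difference 0.43, 0 called by limma). Their median difference was 0.76 within slide 1, but 0.093 within slide 2, with 3 above and 2 below. All 5 smooth muscle markers were below the control mean (median difference -0.16, 0 called by limma). Within slide 1, 3 of them were below and 2 above, and within slide 2, 4 and 1. Over all features 42.6% were below the control mean. In whole-heart RNA, fewer cells of a type and less RNA per cell cannot be told apart. The part of these markers, and of the 75th percentile, in the heart-to-heart movement was not tested.

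The median difference had opposite signs on the slides, with dtg 4 on slide 1 and control 4 on slide 2. The part of these hearts in the turn was not tested. Within slide 1 the median difference of the members was 0.15, with 81 genes above and 3 below, where 47.2% of all features were below. Within slide 2 it was -0.076, with 20 above and 64 below, where 43.9% of all features were below. The sign differed between slides for 63 of the 84 genes, and for 66.7% of all features. Limma called 0 members on either slide alone, against 0.0% of all features on each, and 1 member on slide 1 and 2 on slide 2 reached an unadjusted p under 0.05, against 3.32% and 2.33% of all features. The groups did not overlap for 21 members on slide 1, against 33.1% of all features, and for 13 on slide 2, against 27.4%. With slide as a block the median was 0.033 with 0 called. Without control 4 and dtg 4, left out after the values were seen, the median was 0.071, with 66 genes above and 18 below, where 48.3% of all features were below. Limma again called 0 members, against 0.0% of all features, and 1 lay at an unadjusted p under 0.05, against 0.872% of all features. The groups then did not overlap for 6 members, against 4.28% of all features. In a slide-blocked fit that also left out dtg 3 they did not overlap for 7, against 7.81%.

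**Figure D5:**
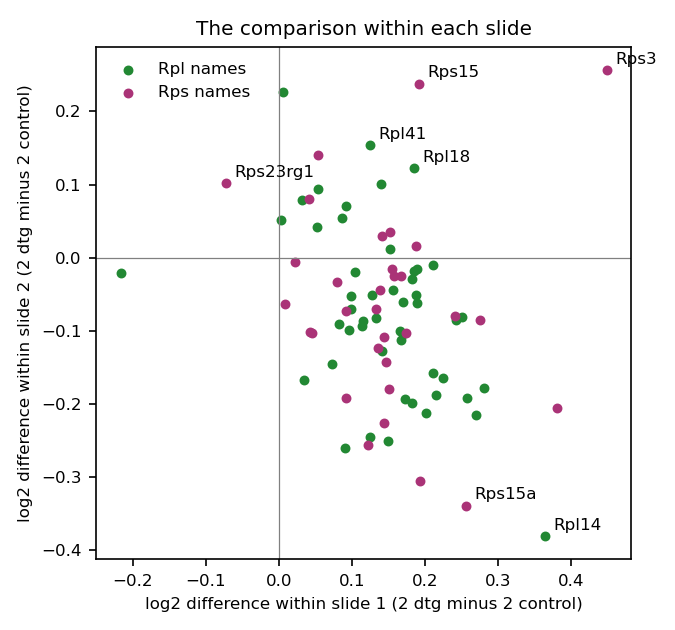
Each point is a ribosomal protein gene, with its log2 difference (2 dtg minus 2 control hearts) within slide 1 on the x axis and within slide 2 on the y axis; Rpl10l and Rpl39l are left out. Most points lie to the right of 0 and below 0, while Rps15, Rpl41, Rpl18 and Rps3 are among those above 0 on both axes.

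Of the 84 genes, 51 had more than 1 kept probe, and the differences of a gene's probes lay a median of 0.063 apart. Their signs differed in 24 of the 51. The largest gap was in Rps15a, where 2 bright probes differed by -0.042 (SE 0.18) and 0.041 (SE 0.17). The third, a dim one, differed by 0.60 (SE 0.20), with controls from -5.41 to -4.90 and dtg hearts from -4.95 to -4.28. Its unadjusted p was 0.015 in a limma fit over all kept probes. The counts of members above use only the brightest probe of each gene and so leave this probe out. Many ribosomal protein genes have processed pseudogenes of near-identical sequence, which these probes may also read, so single members are uncertain to that extent.

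Genes beyond the naming rule that belong to the same machine also gave small differences. Fau, which encodes a small subunit protein fused to a ubiquitin-like protein, differed by 0.066 (SE 0.11), and Rack1, a scaffold on the small subunit, by 0.037 (SE 0.14). Both lay above their own mean in control 4 and in dtg 4. Within slide 2 they were at -0.0099 and -0.083. Of 54 ribosome biogenesis factors, 24 were above and 30 below the control mean (median -0.0080), with 0 called by limma and 0 at an unadjusted p under 0.05. The smallest unadjusted p in that list, 0.12 (limma), belonged to Myc, a transcription factor that drives ribosome production. Myc differed by 0.20 (SE 0.11). Riok1, a kinase of small subunit maturation, differed by -1.36 (SE 1.08), and by -0.13 without dtg 1, which stood at -7.47 with every other heart between -2.87 and -2.21. On dtg 1 the median signal of its spot was 276.5 beside a local background of 530. Taf1a, part of the RNA polymerase I initiation complex, differed by -0.17 (SE 0.14).

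Of 17 other transcripts known to carry a TOP tract, with the non-coding Gas5 and Snhg1 among those listed, 16 were measured, 8 above and 8 below (median -0.0012). Those with the smallest unadjusted p were Eef2, Eif3f and Eef1a1, with differences of -0.075 (SE 0.12), 0.088 (SE 0.14) and -0.070 (SE 0.13). Without control 4, Eif3f was at -0.018 and Eef1a1 at 0.016, and within slide 1 they were at -0.042 and 0.12. Eef2 was at 0.0051 within slide 2. This list stood at 0.12 in control 4 and 0.0035 in dtg 4. Of 15 regulators of TOP mRNAs, 10 were above and 5 below (median 0.029), among them Tsc2 at 0.54 (SE 0.31), Eif4ebp1 at 0.13 (SE 0.11) and Tia1 at 0.21 (SE 0.18). Tsc2 was at 0.23 without dtg 3, Eif4ebp1 at 0.064 without dtg 3 and Tia1 at 0.10 without control 4. The 77 mitochondrial ribosomal protein genes, which serve the separate ribosome of mitochondria, had a median of 0.0017 with 42 above and 35 below. They stood at 0.13 in control 4 and 0.053 in dtg 4, and their median SD over the hearts was 0.12. No gene of these lists passed limma's test (adjusted p = 1 for each named), and the lists were not tested against the ribosomal protein genes.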

How the data were processed

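RNA of 4 control and 4 dtg hearts (100 ng each) was labelled with Cy3 and hybridised to 1-colour arrays. Per the file headers, Agilent Feature Extraction 10.7.3.1 computed for each spot a linear processed signal intensity, corrected for background; the array design names mm9. The authors also deposited a table of log2 values, which matched quantile normalized processed signal centred on each probe's median (r at least 0.999992 per column); the medians of its control columns ran -0.0153, -0.0169, 0.0323, 0.0179 and those of its dtg columns 0.0051, 0.0069, -0.0325, -0.0094. No tool is named for that table in the labels.

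Control spots and outlier spots were left out, log2 values of spots of a probe averaged, and each array's 75th percentile subtracted. RefSeq accessions named 26363 of 39429 probes (GRCm38.p6 gene table, names only). Probes well above background on at least 4 arrays were kept (26118), and the brightest per gene was used. Between 59.1% and 71.5% of probes were well above background per array. Differences were fitted with limma 3.58.1 in R 4.3.3 (lmFit, eBayes) over all 21434 features, with Benjamini-Hochberg adjustment over all of them and a threshold of 0.05. Precision is limited by the number of arrays. The code was tested on simulated data. The members and lists were chosen with earlier results of these data known; named members are those with the smallest unadjusted p per direction (6 each), paralogs and parents, stalk and other members listed by name, those with discordant probes or extreme SD, and up to 3 genes of each fixed list. Alternatives are in the closing section. The remaining members are given only in counts, and Rpl14, Rps23rg1 and Myh6 were named after their values were seen. Some genes that the rule picks are not reported here.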

Additional observations from a re-analysis of the deposited data

Results flagged for a closer look

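In groups of 4, a heart was noted when its gap to the nearest of the others exceeded Dixon's 95% critical share of the group's range. Over 110 such groups 7 were noted, where chance gives about 5%, and 4 of the 7 were in control 4. The median deviation of the 84 ribosomal protein genes in control 4 was 0.25, against -0.13 to -0.078 in the other controls. Control 4 was the highest control for Rpl22 at 5.99 (others 5.33 to 5.41), Rps27l at 4.86 (others 4.40 to 4.46) and Rpl36al at 4.19 (others 3.58 to 3.64).

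Fau stood at 7.36 in dtg 4, against 7.09 to 7.10 in the other dtg hearts. Eif4ebp1, an inhibitor of translation initiation, stood at 3.84 in control 1 (others 3.99 to 4.01). Riok1 stood at -7.47 in dtg 1 (others -2.87 to -2.29), where its spot had a median signal of 276.5 beside a local background of 530. The causes were not tested.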

How the results depend on the processing

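Under all 25 alternatives limma called 0 features and 0 ribosomal protein genes, and the smallest adjusted p of a member was 0.845. The median difference of the members stayed within 1 SD of the spread between hearts (0.15) except with normexp at an offset of 50 (0.27), where the fitted background means of control 4 and dtg 4 were -1740 and -461.9, and lay between -0.020 and 0.11 when 1 heart was left out. The 22 members below the control mean became 43 with quantile normalization, 44 with the authors' deposited values, 58 with median scaling, 5 with normexp, 3 within slide 1, 64 within slide 2, 11 with array weights, and 6 to 51 when 1 heart was left out. The 2 members without overlap became 1 with quantile normalization, the deposited values or normexp without dark spots, 0 with median scaling or normexp, 21 and 13 within slides 1 and 2 (33.1% and 27.4% of all features), 7 in a slide-blocked fit that left out control 4, dtg 3 and dtg 4 (7.81% of all features), 6 without control 4 and dtg 4 (4.28% of all features), and 2 to 4 when 1 heart was left out; fewer hearts make such separation easier by construction. The count of promoter runs was 39 when the run could start within 10 bases. The cause of the other changes was not tested.

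Of 39 named members, 11 turned under no alternative that measured them: Rpl13a, Rpl18, Rpl19, Rpl39, Rpl39l, Rpl41, Rpl7l1, Rps15, Rps3, Rps6 and Rps7. Rpl39l was not measured under the filter on all 8 arrays and passed the usual filter through the controls, where it is high, so its direction supports nothing. The rest turned under at least 1, all from differences that had not passed the test. With normexp the values were Rpl10l -0.080, Rpl13 0.22, Rps12 0.18, Rpl4 0.15, Rpl7 0.19, Rpl22l1 0.21, Rps27l 0.19, Rpl22 0.24, Rpl36a 0.22, Rps27a 0.28 and Rps15a 0.16, and without dark spots Rplp2 -0.0022, Rpl11 -0.0087, Rps27a 0.035 and Rpl10a -0.0058. Median scaling gave Rpl3l -0.014, Rpl36al -0.056, Rpl3 -0.014, Rpl10 -0.027, Rps4x -0.034, Rplp0 -0.0063, Rplp1 -0.044, Rplp2 -0.031, Rpsa -0.051, Rpl5 -0.042, Rpl11 -0.043, Rpl15 -0.012 and Rpl10a -0.046. Quantile normalization gave Rplp1 -0.017, Rplp2 -0.012, Rpsa -0.031, Rpl11 -0.017 and Rpl10a -0.029, and the deposited values Rplp1 -0.018, Rplp2 -0.0095, Rpsa -0.032, Rpl11 -0.018, Rpl15 -0.17 and Rpl10a -0.030. Slide 1 gave Rpl13 0.034, Rps12 0.12, Rpl4 0.090, Rpl7 0.12, Rpl22l1 0.18, Rps27l 0.092, Rpl22 0.20, Rpl36a 0.073, Rps27a 0.043 and Rps15a 0.26. Slide 2 gave Rpl36al -0.19, Rpl3 -0.045, Rpl10 -0.019, Rpl26 -0.029, Rps4x -0.10, Rps27 -0.080, Rplp0 -0.063, Rplp1 -0.082, Rplp2 -0.051, Rpsa -0.11, Rpl5 -0.21, Rpl11 -0.16, Rpl10a -0.052, Rpl31 -0.018 and Rpl12 -0.085. The mean of all kept probes gave Rpl13 0.011, Rpl10 -0.011, Rpl11 -0.0080 and Rps15a 0.20. Array weights gave Rpl7 0.028, Rpl22l1 0.073, Rps27l 0.020, Rpl10 -0.0082, Rpl22 0.079, Rpl36a 0.034 and Rps15a 0.060. Without control 4 and dtg 4, added after seeing the data, they were Rpl7 0.016, Rpl22l1 0.048, Rpl22 0.043, Rpl36a 0.023, Rps27a 0.0095 and Rpl15 -0.010. The slide-blocked fit that left out control 4, dtg 3 and dtg 4 gave Rpl22l1 0.057.

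Leaving out 1 heart at a time turned 24 members, with ranges of -0.027 to 0.083 for Rpl10, -0.0087 to 0.071 for Rpl10a, -0.039 to 0.17 for Rpl11, -0.023 to 0.20 for Rpl12, -0.015 to 0.070 for Rpl15, -0.11 to 0.15 for Rpl22, -0.087 to 0.10 for Rpl22l1, -0.040 to 0.22 for Rpl26, -0.00084 to 0.12 for Rpl3, -0.088 to 0.069 for Rpl36a, -0.080 to 0.16 for Rpl36al, -0.0027 to 0.12 for Rpl3l, -0.19 to 0.019 for Rpl4, -0.065 to 0.16 for Rpl5, -0.13 to 0.074 for Rpl7, -0.0085 to 0.17 for Rplp0, -0.11 to 0.19 for Rplp1, -0.042 to 0.10 for Rplp2, -0.14 to 0.058 for Rps15a, -0.0077 to 0.20 for Rps27, -0.082 to 0.036 for Rps27a, -0.11 to 0.058 for Rps27l, -0.032 to 0.16 for Rps4x and -0.063 to 0.12 for Rpsa. With the replicate number as a block (replicate block) 0 members were called, 276 features reached an unadjusted p under 0.05 against 163 without it, and Rpl15 turned to -0.010. The deviations of same-numbered hearts correlated at 0.54, 0.15 and 0.16 for numbers 1, 3 and 4 and at -0.54 for number 2, and controls 1 and 4 but not 2 and 3 correlated best with the dtg heart of their own number. Since not every pair was over 0.1, the numbers were not taken to pair the hearts.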
